A study of Mus musculus with 4 samples.

Results

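Clock, Nr1d2, Hlf and Bhlhe40 encode transcription factors of the circadian clock, and their expression was compared between SmoM2 and wild type mouse brain. The 4 genes were taken by symbol from a table of 5282 genes that the authors had already selected at an unadjusted p of at most 0.05. The 4 were chosen by their SmoM2 against WT levels in this table, so those values describe these samples and carry no test. The tissue was cortex together with corpus callosum at postnatal day 15. The Pdgfra-creER;SmoM2 genotype, SmoM2 for short, had 2 samples and WT had 2, and tamoxifen was injected from postnatal day 5 to 7 in every sample. SmoM2 is an active form of the hedgehog signal transducer Smoothened, and Pdgfra-creER is a tamoxifen-dependent recombinase that acts in cells using the Pdgfra promoter, mainly oligodendrocyte precursors in brain parenchyma and also fibroblasts. The labels call the controls WT, without saying whether they carried either allele. Neither the time of day of collection nor the number of animals behind a sample is in the labels, so spread between samples may be technical. Clock transcripts vary over the day, and the part of collection time in the differences between samples and groups was not tested.

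The circadian clock is a loop of transcription factors that runs in nearly all cells of the body, glia and neurons included. CLOCK pairs with BMAL1 (gene Arntl) and activates genes that carry E-boxes. Among these genes are the Per and Cry repressors, which close the main loop, and the nuclear receptors REV-ERB alpha and beta (Nr1d1 and Nr1d2), which repress Arntl, Clock and other genes through ROR elements. HLF, with its relatives DBP and TEF, activates genes through D-boxes. BHLHE40, also called DEC1, binds E-boxes and represses what CLOCK and BMAL1 activate, and its gene is also induced by hypoxia and by neuronal activity.

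All 4 genes are protein-coding and lie on different chromosomes of GRCm38, per GENCODE M21. Clock (ENSMUSG00000029238) spans chromosome 5 from 76209868 to 76304792 on the minus strand. Nr1d2 (ENSMUSG00000021775) spans chromosome 14 from 18204054 to 18239127 on the minus strand. Hlf (ENSMUSG00000003949) spans chromosome 11 from 90336536 to 90390895 on the minus strand. Bhlhe40 (ENSMUSG00000030103), the most compact of the 4 at 6297 bases, spans chromosome 6 from 108660629 to 108666925 on the plus strand. An antisense gene, 0610040F04Rik, overlaps Bhlhe40, and it is not stated whether counting used strand, so reads of the pair may be mixed. A processed pseudogene, Ube2n-ps1, and the experimentally unverified locus Gm43658 lie within Clock on its own strand. No other annotated gene overlaps Nr1d2 or Hlf.

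Promoter windows, from 250 bases before to 50 bases after a transcription start, were read from RefSeq (GRCm38.p6) for 46 of the 53 genes in the clock lists, among them Clock, Nr1d2 and Hlf. They are shown because the 3 genes were lower together and because clock factors act through short motifs in such regions. The windows were searched on both strands for the E-box CACGTG, the D-box TTANGTAA and the ROR elements TAGGTCA and TGGGTCA, and, chosen after the sequences were read, for the E-box variant CACGTT, the nuclear receptor hexamer AGGTCA and the cAMP response element TGACGTCA. AGGTCA is contained in TAGGTCA. Capitals mark every match. The Clock window is chr5:76304743-76305042 (minus strand), that of Nr1d2 is chr14:18239057-18239356 (minus strand) and that of Hlf is chr11:90390868-90391167 (minus strand). Clock has 3 annotated starts, and the most upstream is shown.
Clock: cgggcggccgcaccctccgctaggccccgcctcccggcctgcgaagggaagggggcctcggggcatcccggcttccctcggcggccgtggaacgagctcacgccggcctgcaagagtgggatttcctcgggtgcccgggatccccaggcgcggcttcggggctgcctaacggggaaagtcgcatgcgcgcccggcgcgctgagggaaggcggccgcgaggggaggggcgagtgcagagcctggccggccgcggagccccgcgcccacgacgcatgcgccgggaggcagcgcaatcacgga
Nr1d2: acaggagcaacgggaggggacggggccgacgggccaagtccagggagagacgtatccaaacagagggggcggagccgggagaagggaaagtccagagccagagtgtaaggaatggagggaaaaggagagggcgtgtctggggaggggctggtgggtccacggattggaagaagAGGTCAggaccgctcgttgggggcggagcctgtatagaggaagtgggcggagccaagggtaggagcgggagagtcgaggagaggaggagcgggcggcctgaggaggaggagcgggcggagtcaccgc
Hlf: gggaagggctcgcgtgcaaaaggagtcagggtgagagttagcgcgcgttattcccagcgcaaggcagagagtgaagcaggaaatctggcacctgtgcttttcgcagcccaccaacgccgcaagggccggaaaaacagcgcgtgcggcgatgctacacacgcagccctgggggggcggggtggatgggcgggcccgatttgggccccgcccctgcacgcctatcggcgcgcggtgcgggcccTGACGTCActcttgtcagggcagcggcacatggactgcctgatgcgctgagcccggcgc
None of these 3 windows holds an E-box, a D-box or a ROR element in those letters, nor do the windows at the other Clock starts. Among all 32851 windows, 7.15% hold CACGTG, 2.32% TTANGTAA, 2.61% TAGGTCA and 3.98% TGGGTCA. The Nr1d2 window holds AGGTCA beginning at position -77 from the start, and 16.3% of all windows hold that hexamer. The most downstream Clock window, chr5:76303453-76303752, which is not printed, holds AGGTCA beginning at position -119. The Hlf window holds TGACGTCA, the site recognised by the CREB family, beginning at position -9, and 1.79% of all windows hold it. The Clock window shown holds no match of any of the 7 motifs, and 76.3% of its bases are G or C, against a median of 52.7% over all windows. The Hlf and Nr1d2 windows lie above that median too, at 67.3% and 65.7%.

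Windows are also shown for 2 genes of the clock output list that passed the test. They were picked because they hold an E-box, so their difference from the windows above was fixed by that choice. Vip and Tsc22d3, which also passed, hold none of the motifs searched. Coq10b encodes a coenzyme Q-binding protein and is a rhythmic transcript in many mouse tissues. Avp encodes the neuropeptide vasopressin and is a textbook E-box target of CLOCK and BMAL1 in the suprachiasmatic nucleus. The Coq10b window is chr1:55052520-55052819 (plus strand) and the Avp window is chr2:130582539-130582838 (minus strand).
Coq10b: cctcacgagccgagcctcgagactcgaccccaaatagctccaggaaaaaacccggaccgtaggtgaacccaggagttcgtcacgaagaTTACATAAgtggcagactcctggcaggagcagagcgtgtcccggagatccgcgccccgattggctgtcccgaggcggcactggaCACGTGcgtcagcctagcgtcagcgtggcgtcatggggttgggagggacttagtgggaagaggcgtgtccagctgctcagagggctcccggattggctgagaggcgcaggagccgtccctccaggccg
Avp: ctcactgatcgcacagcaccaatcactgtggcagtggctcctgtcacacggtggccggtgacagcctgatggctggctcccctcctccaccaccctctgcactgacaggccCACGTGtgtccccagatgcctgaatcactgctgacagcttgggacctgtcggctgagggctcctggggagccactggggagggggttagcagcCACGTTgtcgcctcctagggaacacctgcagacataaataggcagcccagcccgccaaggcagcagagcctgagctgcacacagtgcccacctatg
In Coq10b the E-box begins at position -78 and a D-box at position -162. In Avp the E-box begins at position -139 and the variant CACGTT at position -46. Of the 46 clock list genes with a window, 12 hold CACGTG in any of their windows, which number 64 in all. The 7.15% given above counts windows and not genes, so it is no baseline for this count. A match shows letters in a window and not that a factor is bound there. Nor does the lack of a match show that a gene has no such motif outside the window. The window of Nr1d1, named above among the genes that CLOCK and BMAL1 activate, holds no CACGTG.

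All 4 clock factors were lower in SmoM2, and in each the higher SmoM2 sample stayed below the lower WT sample. Values are expression levels in the unit the authors deposited, which is scaled for library size. Log2 fold changes marked as the authors' come from their deposited table, and log2 differences with a standard error (SE) come from limma on log2(level + 1), SmoM2 minus WT. This SE is moderated: it draws on the spread of the other listed genes, which were selected by p. The SD between replicates on that scale, pooled over both groups, was 0.38 for Hlf, 0.21 for Clock, 0.18 for Nr1d2 and 0.06 for Bhlhe40. With 2 samples a group, that SD equals the SE without moderation. The authors' deposited table puts all 4 below an adjusted p of 0.05 in the lower direction, where 16.0% of the 5282 listed genes stand. Both SmoM2 samples lay below both WT samples in 35.2% of listed genes. The 4 genes were chosen for these values, so nothing is read from that count.

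Hlf had the widest difference of the 4. Its level was 37.91 and 29.22 in the SmoM2 samples, against 41.05 and 65.30 in the WT samples. The groups did not overlap, but the nearest pair of samples was close, with the higher SmoM2 sample at 92.4% of the lower WT sample, and WT replicate 2 stood far above the rest. Mean levels were 33.6 ± 6.14 for SmoM2 and 53.2 ± 17.1 for WT (SD, n = 2 each). The log2 difference was -0.62 ± 0.24 (SE, limma), and the log2 fold change in the authors' deposited table was -0.69. Of the 844 genes called lower there, 220 had a more negative log2 fold change than Hlf.

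Clock, the activator of the loop, was the least abundant of the 4. Its level was 8.80 and 7.44 in SmoM2, against 9.32 and 12.22 in WT. The order of samples was that of Hlf: SmoM2 replicate 2 lowest, WT replicate 2 highest, and the other 2 samples near each other. Mean levels were 8.12 ± 0.962 for SmoM2 and 10.8 ± 2.05 for WT (SD, n = 2 each), and limma put the log2 difference at -0.36 ± 0.18 (SE). The log2 fold change in the authors' deposited table was -0.46, beside a median of -0.49 over the 844 genes called lower.

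Nr1d2, the REV-ERB beta repressor, had levels of 19.94 and 19.83 in SmoM2, against 21.55 and 28.10 in WT. The SmoM2 samples were nearly equal, and WT replicate 1 lay closer to them than to WT replicate 2. Mean levels were 19.9 ± 0.0778 for SmoM2 and 24.8 ± 4.63 for WT (SD, n = 2 each), and limma put the log2 difference at -0.29 ± 0.15 (SE). The authors' deposited table gives a log2 fold change of -0.43.

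Bhlhe40, the E-box repressor, differed from the other 3 in that its replicates lay close together in both groups. Its level was 29.07 and 29.41 in SmoM2, against 35.66 and 38.81 in WT. The gap between groups was wider than the spread within either, and the higher SmoM2 sample stood at 82.5% of the lower WT sample. Mean levels were 29.2 ± 0.240 for SmoM2 and 37.2 ± 2.23 for WT (SD, n = 2 each). The log2 difference was -0.34 ± 0.11 (SE, limma), and the log2 fold change in the authors' deposited table was -0.42.

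**Figure D1:**
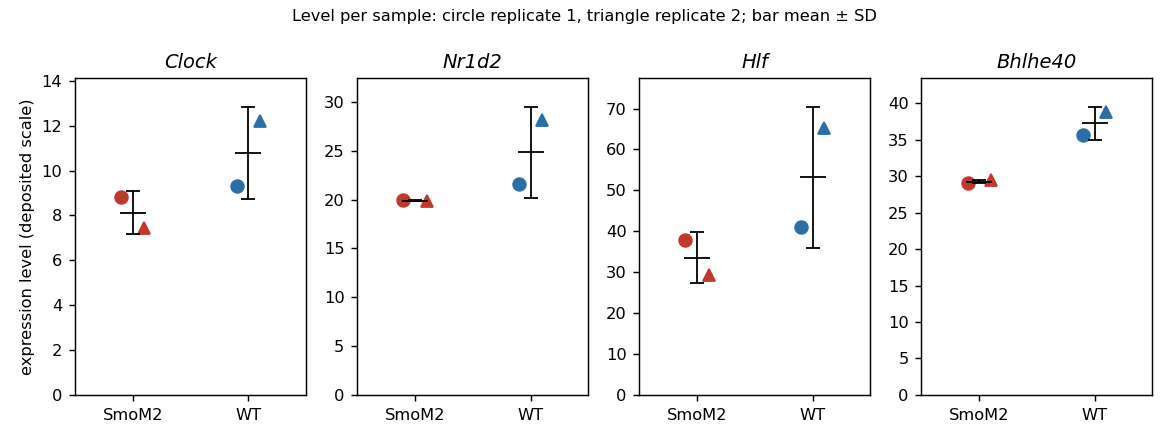
Expression level (deposited scale, y axis from 0) of each clock factor in the SmoM2 and WT samples. Circles are replicate 1, triangles replicate 2, and bars the mean ± SD of 2 samples; WT replicate 2 is the highest sample in all 4 genes, and Bhlhe40 has the clearest gap between groups.

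By level, the order in WT was Hlf, Bhlhe40, Nr1d2 and Clock, with no overlap between neighbours. The means in SmoM2 kept that order, but there Hlf (29.22 to 37.91) and Bhlhe40 (29.07 to 29.41) overlapped and could not be ranked. Setting levels of different genes side by side assumes that they are scaled per length. That scaling is not stated, and was judged from the values: longer listed genes did not have higher levels, with a Spearman rho of -0.0857 between level and exonic length across 4800 genes.

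The difference of Bhlhe40 depended less on a single library than those of the other 3 genes. Without WT replicate 2 the log2 difference (limma) was -0.29 for Hlf, -0.18 for Clock and -0.11 for Nr1d2, against -0.62, -0.36 and -0.29 with all 4 samples. Bhlhe40 moved towards 0 as well, but less, to -0.28 against -0.34. Without WT replicate 1 the log2 differences were -0.95 for Hlf, -0.54 for Clock, -0.48 for Nr1d2 and -0.40 for Bhlhe40. Leaving out a SmoM2 sample gave -0.81 and -0.44 for Hlf, -0.47 and -0.25 for Clock, -0.30 and -0.29 for Nr1d2, and -0.33 and -0.35 for Bhlhe40, in the order replicate 1, replicate 2. Their sign was fixed in advance, since the groups of all 4 genes do not overlap. The 2 WT samples differed from each other by a log2 ratio of 0.66 for Hlf, a wider gap than in all but 3.22% of the 4009 listed genes that averaged 5 or more. For Clock the WT log2 ratio of replicate 2 to replicate 1 was 0.36 and for Nr1d2 0.37, exceeded in 14.1% and 13.3% of those genes. For Bhlhe40 it was 0.12, exceeded in 58.9%. WT replicate 2 was above WT replicate 1 in 63.8% of the same genes.

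**Figure D2:**
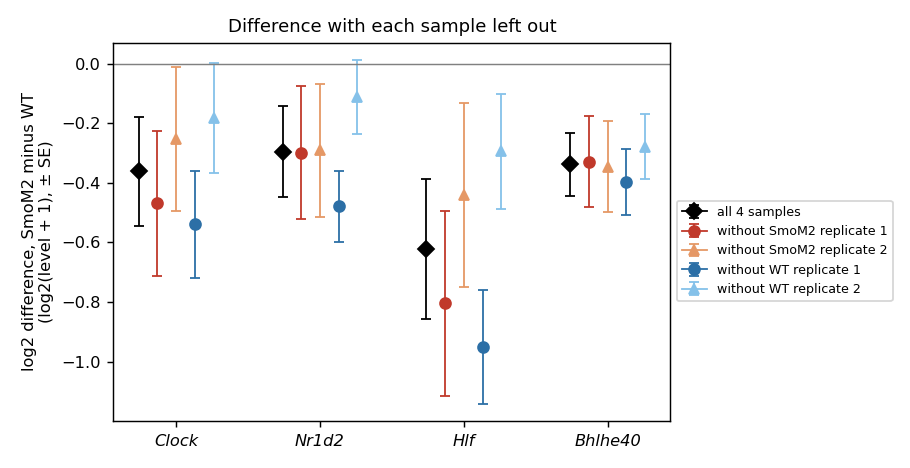
Log2 difference on the log2(level + 1) scale, SmoM2 minus WT (y axis), of each clock factor with all 4 samples (black diamonds) and with each sample left out (coloured), bars ± SE from limma. Points for Hlf, Clock and Nr1d2 move towards 0 without WT replicate 2, to -0.29, -0.18 and -0.11, and Bhlhe40 stays between -0.40 and -0.28.

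Beyond these 4, the clock lists held 49 genes, of which 11 had a row in the table. The other 38, among them Arntl, Per1, Per2, Per3, Cry1, Cry2, Nr1d1, Dbp and Tef, had no row and were not analysed here. Only genes with an unadjusted p of at most 0.05 are listed, so these did not reach it, were not tested or carry another symbol. Counts and medians over the 11 describe only genes that passed that filter. By the adjusted p of the authors' deposited table, with a threshold of 0.05, 5 of the 11 fell, 1 rose and 5 did not pass. Over all listed genes, 16.0% were called lower and 21.3% higher. Their log2 fold changes had a median of -0.37, against 0.23 over all listed genes (authors' deposited table).

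Rora, which encodes the activator that competes with REV-ERB proteins for ROR elements, was called lower but did not separate the groups. Its level was 4.70 and 4.66 in SmoM2, against 4.10 and 6.36 in WT. The WT samples lay on either side of the SmoM2 samples. The authors' deposited table gives a log2 fold change of -0.41 (adjusted p = 0.0403), while the limma log2 difference was -0.11 ± 0.23 (SE), or 0.16 without WT replicate 2 and -0.37 without WT replicate 1. An antisense gene, Gm15511, overlaps Rora.

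Genes whose products modify clock proteins had 5 of 17 members in the table, all with both SmoM2 samples below both WT samples, as in 35.2% of all listed genes, and 1 fell, beside 16.0% of all listed genes. Prkaa2 encodes a catalytic subunit of AMP-activated kinase, which marks CRY proteins for removal. Its level was 9.40 and 8.46 in SmoM2, against 10.18 and 11.81 in WT, with a log2 fold change of -0.37 (adjusted p = 0.0323, authors' deposited table). Without WT replicate 2 its limma log2 difference was -0.17, against -0.27 with all samples. Prkaa1, for the other catalytic subunit, read 6.71 and 6.42 in SmoM2, against 8.27 and 8.55 in WT, and missed the threshold (adjusted p = 0.0668, authors' deposited table). Cul1, a scaffold of ubiquitin ligases, and Csnk2a1, a casein kinase 2 subunit, did not pass, with log2 fold changes of -0.30 and -0.23 per the authors' deposited table.

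Among 15 output genes, 5 had a row, of which 3 fell and 1 rose, beside 16.0% and 21.3% of all listed genes. Coq10b, whose promoter window is printed above, read 25.42 and 24.65 in SmoM2, against 33.08 and 35.45 in WT. The groups were well apart, with a log2 difference of -0.44 ± 0.11 (SE, limma), and the adjusted p in the authors' deposited table was 0.00322. Tsc22d3, which encodes the glucocorticoid-induced protein GILZ and is rhythmic in many tissues, read 55.01 and 60.07 in SmoM2, against 76.80 and 71.31 in WT (log2 fold change -0.46, adjusted p = 0.00154, authors' deposited table). Vip, the neuropeptide of cortical interneurons and of the suprachiasmatic nucleus, read 27.13 and 31.29 in SmoM2, against 41.36 and 51.05 in WT (log2 fold change -0.73, adjusted p = 2.54e-06, authors' deposited table). For each of these 3 genes every SmoM2 sample was below every WT sample, as in 35.2% of all listed genes.

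Avp went the opposite way. Its level was 9.76 and 11.22 in SmoM2, against 0.49 and 0.00 in WT. Both SmoM2 samples were far above both WT samples, with adjusted p = 1.66e-09 in the authors' deposited table, and no fold is given because WT replicate 2 is listed at 0. Avp is a gene of hypothalamic neurons, which the labelled tissue does not include, and its level moved with the groups. The part of tissue outside cortex and corpus callosum in the values of the clock factors was not tested. Tspan4, a tetraspanin gene, was 49.24 and 53.58 in SmoM2, against 41.94 and 36.20 in WT, and did not pass (adjusted p = 0.115, authors' deposited table).

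**Figure D3:**
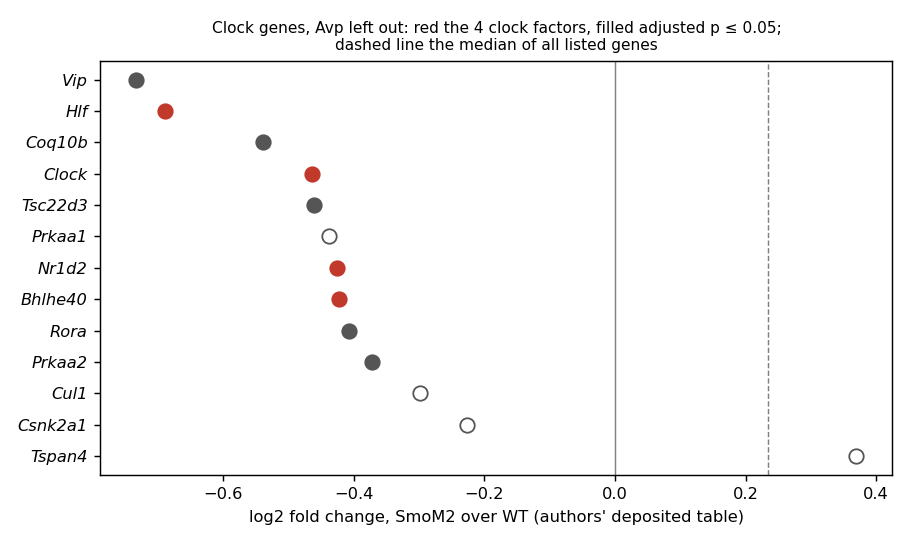
Log2 fold change, SmoM2 over WT, in the authors' deposited table (x axis) for the clock genes named in the text, Avp left out because WT replicate 2 is listed at 0. Red points are the 4 clock factors, grey the other genes, filled points passed the 0.05 threshold on adjusted p, and the dashed line is the median of all listed genes, 0.23; every gene shown but Tspan4 lies below 0.

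The listed genes most like each factor were found by the root mean square distance between centred log2(level + 1) profiles over the 4 samples, among 3824 listed genes that had a usual symbol and averaged 5 or more. For Clock they were Rock2, Mphosph10 and Vps13a, at distances of 0.00871, 0.0127 and 0.0163. Rock2, the nearest, read 19.38 and 16.69 in SmoM2, against 20.50 and 26.92 in WT. For Nr1d2 they were Nebl, Tnr and Trim23, at 0.0147, 0.0191 and 0.0212, and for Bhlhe40 they were Lratd2, Mtpn and Khdrbs3, at 0.0129, 0.0132 and 0.0148. For Hlf they were Smim15, Tnfrsf12a and Tmem196, farther off at 0.0542, 0.0618 and 0.0691. Among the factors themselves the closest pair was Clock and Nr1d2, at 0.0808, and the farthest was Hlf and Bhlhe40, at 0.273. This distance counts the size of a profile as well as its shape. The root mean square size was 0.409 for Hlf, 0.233 for Clock, 0.197 for Nr1d2 and 0.174 for Bhlhe40. With 4 samples of 2 groups, many genes share such a profile.

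BHLHE40 and several other clock factors also answer to hypoxia, neuronal activity and glucocorticoids, and lists for these were counted beside the clock genes. Over all listed genes, 16.0% fell, 21.3% rose and 35.2% had both SmoM2 samples below both WT samples. Of 14 hypoxia-induced genes, 5 had a row, 3 lower and 2 higher, and 1 fell: Bnip3, a mitophagy receptor gene, at 153.00 and 163.12 in SmoM2, against 170.34 and 177.52 in WT, and its limma log2 difference of -0.14 was -0.09 without SmoM2 replicate 1. Of 17 immediate early genes, 8 had a row, 3 fell and 2 rose. Among those that fell, Npas4 overlapped between groups, at 6.30 and 3.55 in SmoM2, against 6.07 and 10.90 in WT. Homer1 also fell, with a limma log2 difference of -0.33, or -0.18 without WT replicate 2. Egr1, an activity-induced zinc finger factor, read 86.58 and 89.71 in SmoM2, against 107.10 and 122.86 in WT, while Egr4 and Nr4a2 rose, with log2 fold changes of 0.55 and 0.73 per the authors' deposited table. Nr4a2 had a limma log2 difference of 0.87, or 0.57 without WT replicate 2. Of 13 glucocorticoid-induced genes, 9 had a row and 4 had none. Both SmoM2 samples were below both WT samples in all 9, and 7 fell, while Fkbp5 and Sgk1 did not pass (adjusted p = 0.129 and 0.51, authors' deposited table). Its median log2 fold change was -0.53 in the authors' deposited table, against 0.23 over all listed genes. The metallothionein gene Mt2 read 92.12 and 126.08 in SmoM2, against 496.40 and 419.92 in WT. Tsc22d3 belongs to both this list and the clock output list. The part of these responses in the levels of the clock factors was not tested.

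Markers of several cell types moved with the groups too. In bulk tissue fewer cells of a type and less RNA per cell cannot be told apart. Beside the counts below, 16.0% of all listed genes fell and 21.3% rose. All 13 mature oligodendrocyte markers had a row and fell, with summed levels of 3067 and 3461 in SmoM2, against 6414 and 6029 in WT. All 6 red blood cell markers fell, with sums of 65.6 and 120 in SmoM2, against 662 and 450.2 in WT. Of 9 choroid plexus markers, 7 had a row and 5 fell, with sums of 77.5 and 631 in SmoM2, against 1223 and 1188 in WT. Ttr made up most of these sums, at 71.2 and 618 in SmoM2, against 1203 and 1162 in WT, and SmoM2 replicate 1 stood apart in them. The limma log2 difference of Ttr was -2.48, or -0.93 without SmoM2 replicate 1. Of 10 meningeal fibroblast markers 9 had a row and rose, with sums of 1849 and 1915 in SmoM2, against 1036 and 399 in WT. Ptgds made up most of these sums, at 1641 and 1728 in SmoM2, against 933 and 313 in WT, and its limma log2 difference of 1.64 was 0.85 without WT replicate 2. All 10 olfactory bulb markers had a row and 9 rose, with sums of 246 and 160.0 in SmoM2, against 108 and 96.5 in WT. SmoM2 replicate 1 stood apart here too: Doc2g read 21.44 and 3.93 in SmoM2, against 2.44 and 2.55 in WT, and Cdhr1 read 23.35 and 7.58, against 4.64 and 4.07. The groups overlapped in 4 of the 10, and Calb2, at 107.63, made up most of the sum in SmoM2 replicate 2. Neuronal markers were mixed, with 4 of 10 in the table and sums of 3017 and 3080 in SmoM2, against 2798 and 3249 in WT. Snap25, Syt1 and Neurod6 fell, each with both SmoM2 samples below both WT samples, as in 35.2% of all listed genes. Tubb3 rose, at 1125 and 1167 in SmoM2, against 626 and 670 in WT. The limma log2 difference of Snap25 was -0.21 without WT replicate 2, against -0.35. Astrocyte markers had 5 of 9 in the table, of which Slc1a2 fell and Gfap and Aqp4 rose, and sums of 1276 and 1191 in SmoM2, against 1402 and 1282 in WT. Leaving out a sample moved the limma log2 difference to between -0.50 and -0.16 for Slc1a2, 0.32 and 0.74 for Gfap and 0.32 and 0.67 for Aqp4; the values nearest 0 came without SmoM2 replicate 2, WT replicate 2 and SmoM2 replicate 1. Oligodendrocyte precursor markers had 4 of 9 in the table, and Cspg4 and Ptprz1 rose, with sums of 151 and 138 in SmoM2, against 107 and 109 in WT; Ptprz1 had a limma log2 difference of 0.25 without SmoM2 replicate 1, against 0.39. Microglial markers had 5 of 8 in the table and sums of 340.0 and 304 in SmoM2, against 251 and 260 in WT. Endothelial markers had 6 of 8 and sums of 271 and 191 in SmoM2, against 261 and 220 in WT, and both lists had members called in either direction. Among the markers, Slc4a1 is listed at 0 in SmoM2 replicate 1 and Tbx21 in WT replicate 2. Outside the olfactory bulb list, the groups overlapped in Aspa (oligodendrocyte), Slc4a5 (choroid plexus), Col3a1 (meningeal fibroblast) and P2ry12 (microglia), though each was called. WT replicate 2, the highest sample for every clock factor, was also highest in the neuronal sum. WT replicate 1 was the lowest in that sum, but only with Tubb3 in it. In Snap25, Syt1 and Neurod6 it was above both SmoM2 samples. The part of cell composition in the clock factor levels was not tested.

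**Figure D4:**
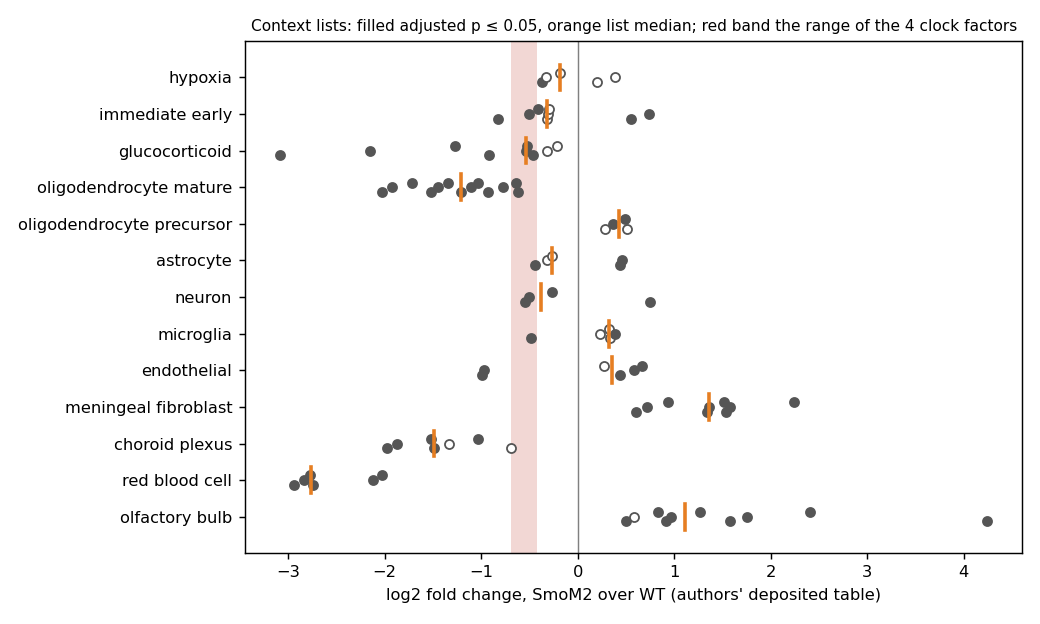
Log2 fold change, SmoM2 over WT, in the authors' deposited table (x axis) for genes of 13 context lists (rows). Filled points passed the 0.05 threshold on adjusted p, orange bars are list medians, and the red band spans the 4 clock factors, -0.69 to -0.42; the glucocorticoid median, -0.53, lies in the band and the oligodendrocyte, choroid plexus and red blood cell medians lie below it.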

How the data were processed

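RNA of cortex with corpus callosum was made into TruSeq libraries from 1 ug of total RNA, per the labels' protocols. RSEM, DESeq2 and GRCm38.p6 are named, without roles, per the submitters' processing notes. The deposited table gives per sample an expression level with 2 decimals, used here as a signal scaled for library size; no source used here says if it is TPM or FPKM. It also holds the authors' fold change as a ratio, its log2 value, and a p-value with its adjusted p-value, which matches adjustment over 57010 tests. Depth is unknown, since no counts were used, so no counting interval can be given. Summed over listed genes, levels came to 469062 to 512833 a sample. Columns were tied to samples by the series text.

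The 4 genes, the 6 clock lists and the 13 context lists were chosen with earlier results of these data known. Calls rest on the adjusted p of the authors' deposited table, with 0.05 as the threshold. limma 3.58.1 (R 4.3.3, mean-variance trend) was run on log2(level + 1) for the 4845 genes that averaged 1 or more; this scale understates the change of low genes. The limma step was tested on simulated data with the same spread for every gene. Genes named were the 4 factors, clock genes with a row, the 3 nearest profiles of each factor, and up to 2 called genes of highest level per context list, with some left out for length. A clock gene that is counted but not named is not reported here. Egr4, Nr4a2, Npas4, Aqp4, Syt1, Neurod6, Fkbp5, Sgk1, Doc2g and Cdhr1 were named after their values were seen. Of the listed genes, 5226 were found in GENCODE M21 (GRCm38) and 56 were not. Alternatives were other pseudocounts, scalings and filters, leaving out each sample, a replicate block, limma calls and a stricter threshold. The replicate numbers were not used to pair samples, since no label says that they mark a litter or batch.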

Additional observations from a re-analysis of the deposited data

How the results depend on the processing

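The groups of the 4 clock factors do not overlap, so other pseudocounts (0.1 and 5), level filters (a minimum mean of 5 or none), leaving out a sample and the replicate block could not turn a sign; the rescalings could, and under equal medians and quantile normalization all 4 log2 differences were negative. Quantile normalization gave -0.42 and equal medians -0.43 for Bhlhe40, against -0.34; its replicates lie so close that these shifts exceed their spread. The cause is in the construction: quantile normalization moved the median log2 difference of all genes from 0.25 to 0.13, and equal medians to 0.16. Without 1 sample the ranges were -0.54 to -0.18 for Clock, -0.48 to -0.11 for Nr1d2, -0.95 to -0.29 for Hlf, -0.40 to -0.28 for Bhlhe40, and -0.31 to -0.17 for the median of the 11 other clock genes (10 at a minimum level of 5). With the authors' deposited table and an adjusted p threshold of 0.01, 3 of those 11 were called lower, against 5 at 0.05, and Avp was still called higher. limma called 0 of them lower and 0 higher after adjustment over 57010 tests, with 3 lower and 2 higher at an unadjusted p within 0.05; over all genes it called 6 with that adjustment and 0.05 as the threshold, and 2687 had an unadjusted p within 0.05. With the replicate block limma called 20 genes, against 6 without it. The differences (Clock -0.36, Nr1d2 -0.29, Hlf -0.62, Bhlhe40 -0.34) could not move, since the block is balanced over the groups. Deviations of same-numbered samples correlated at -0.0934 across 4845 genes. A single correlation across genes cannot tell whether same-numbered samples share a litter, batch or collection time. With 2 samples a group and a table of selected genes, no alternative gives an independent check.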
